A study of Mus musculus with 4 samples.

Results

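The 34 genes described here encode enzymes of cholesterol and fatty acid synthesis and the proteins that control them. They were found by matching the gene identifiers of the deposited count table to the symbols of a fixed list, and all 34 of 34 were found among 54393 identifiers, of which 18917 were abundant enough to test. They comprise 17 sterol synthesis enzymes, 13 enzymes of fatty acid synthesis, elongation and desaturation, and 4 regulators and carriers. The 17 sterol genes do not cover every step of the pathway. All 34 passed the filter on low counts, and the lowest count of any of them in any library was 232.

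Mammary cells were compared between mice labelled WT and mice labelled Dnp63 cKO, a conditional knockout of ΔNp63, the short form of the transcription factor p63 that marks basal epithelial cells. The labels describe the mice as iK14-Cre; DNp63 f/f, in which a keratin 14 promoter, active in basal cells, drives the recombinase, and do not say which allele the WT animals lacked. Tamoxifen (1.5 mg/ml) was given at 4 weeks of age, and the same treatment is stated for all samples. Glands were taken after 10 days or after 5 weeks, with 1 library for each genotype at each time, so that n = 2 per genotype and n = 1 for each genotype at a given time. A further label, the same for all 4 samples, gives gland ages of 5 and 35 weeks. An age of 35 weeks does not follow from 4 weeks of age plus 5 weeks, so the age of the mice in the later libraries is uncertain. Neither the number of animals behind a library nor the strain or sex is stated, so a p-value reflects the spread among these 4 libraries alone. With 1 library for each genotype at each time, that spread is not one between replicates. It holds any change of the genotype difference between the times, along with animal and technical noise, and these cannot be told apart. Cells carrying CD45, CD31 or Ter119 were sorted out and 100000 of the rest were used for each library. The deposited counts summed to 33363255 and 31714181 for WT and cKO at 10 days, and to 79122250 and 34230566 at 5 weeks.

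The cells are labelled as mammary epithelial, and the epithelial markers were present in every library. Markers of luminal epithelium (8 genes, among them Krt8 and Epcam) summed to between 6742 and 9061 CPM (counts scaled to a common library size). Fibroblast markers (7 genes) summed to between 22230 and 49987 CPM, so the libraries held stromal RNA as well. The WT libraries held 46.8 (10 days) and 160.5 CPM (5 weeks) of Trp63, the targeted gene, and the cKO libraries 12.8 and 25.5 CPM. Its counts hold all isoforms. In bulk RNA, fewer cells of a type and less RNA per cell cannot be told apart.

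Cholesterol is built from acetyl-CoA by way of mevalonate, farnesyl diphosphate, squalene and lanosterol. Fatty acids are built from the same precursor by acetyl-CoA carboxylase and fatty acid synthase, and are then lengthened and desaturated. Both branches are controlled by the SREBP transcription factors, which are held in the endoplasmic reticulum by INSIG proteins when sterols are plentiful and are released for processing when sterols are scarce. SREBP-2 (Srebf2) acts mainly on sterol genes and SREBP-1c (from Srebf1) mainly on fatty acid genes. In the mammary gland, lipid synthesis is best known for milk fat in lactation, while proliferating and stratifying epithelia make sterols for their membranes and barrier.

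The branches differed most at 5 weeks. All 17 sterol enzymes lay below WT in the cKO library at that time, with a median log2 ratio of -1.24, or 2.36-fold (quartiles -1.32 and -0.78). Of them 11 of 17 were past 2-fold lower and 0 were past 2-fold higher. Over all genes tested, 6.54% were past 2-fold lower and 7.78% past 2-fold higher at 5 weeks, and the median log2 ratio was -0.01. Among the 10182 genes with a mean of at least 10 CPM, where all 34 genes fall, 4.20% were past 2-fold lower. The 13 fatty acid enzymes had a median log2 ratio of -0.02 at 5 weeks (quartiles -0.32 and 0.05), and 0 of 13 were past 2-fold in either direction. At 10 days the median was -0.07 for the sterol enzymes and -0.01 for the fatty acid enzymes, beside 0.00 for all genes. Each of these ratios sets 1 library against 1, so none has a replicate check, and the difference between the branches was not tested.

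**Figure D1:**
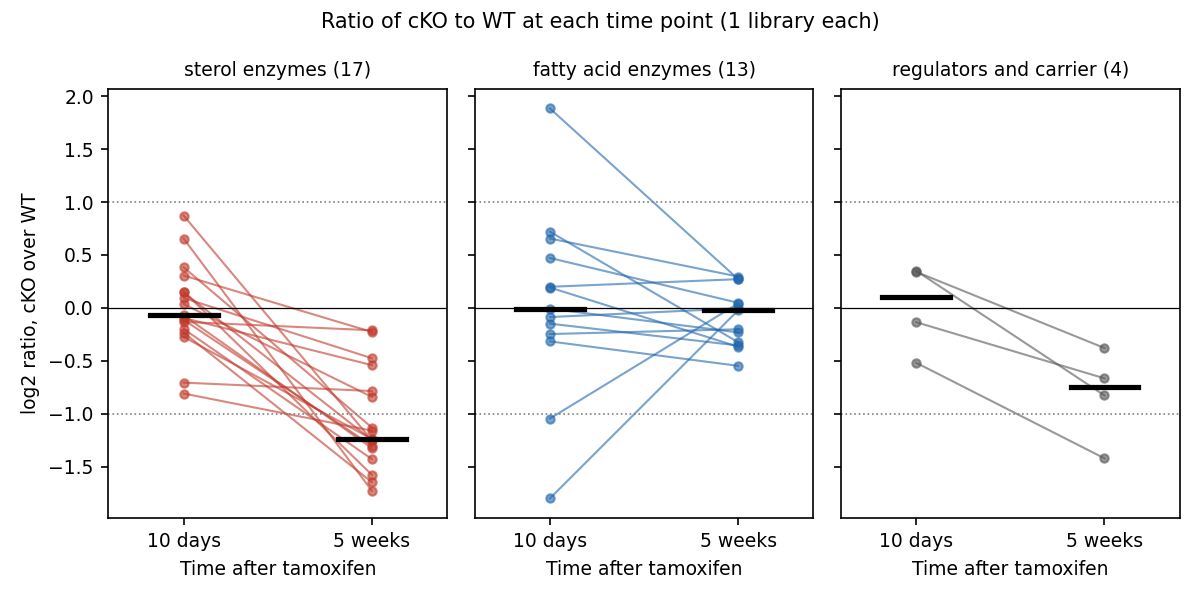
Log2 ratio of cKO to WT at 10 days and 5 weeks for the 17 sterol enzymes, 13 fatty acid enzymes and 4 regulators and carriers. Each line is 1 gene, black bars are medians and dotted lines mark 2-fold. The sterol median moves from -0.07 to -1.24, and the fatty acid median is -0.01 and -0.02.

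The sterol difference lay mostly in the WT library at 5 weeks. The summed level of the 17 enzymes was 618.4 CPM in WT and 736.0 in cKO at 10 days, and 1183 in WT and 521.2 in cKO at 5 weeks. Hmgcs1 alone held 124.9 and 228.6 CPM of the 10-day sums, and 9 of 17 enzymes lay below WT in cKO at that time. In 16 of 17 the WT library at 5 weeks was the highest of the 4 libraries, where 29.0% of all genes have their highest value. Ebp was the exception, with its highest value in cKO at 10 days. In 12 of 17 the lowest value was in cKO at 5 weeks, which holds the lowest value of 27.2% of all genes. Within WT, the median log2 ratio of 5 weeks over 10 days was 0.75 with 6 of 17 past 2-fold higher (7.00% of all genes) and 0 of 17 past 2-fold lower (6.43%). Within cKO the same median was -0.32, with 13 of 17 below 0 and 1 of 17, Hmgcs1, past 2-fold lower (4.34% of all genes), and 0 of 17 past 2-fold higher (6.02%). The ratio at 5 weeks and the change within WT share the WT library at 5 weeks, which is also the deepest of the 4.

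**Figure D2:**
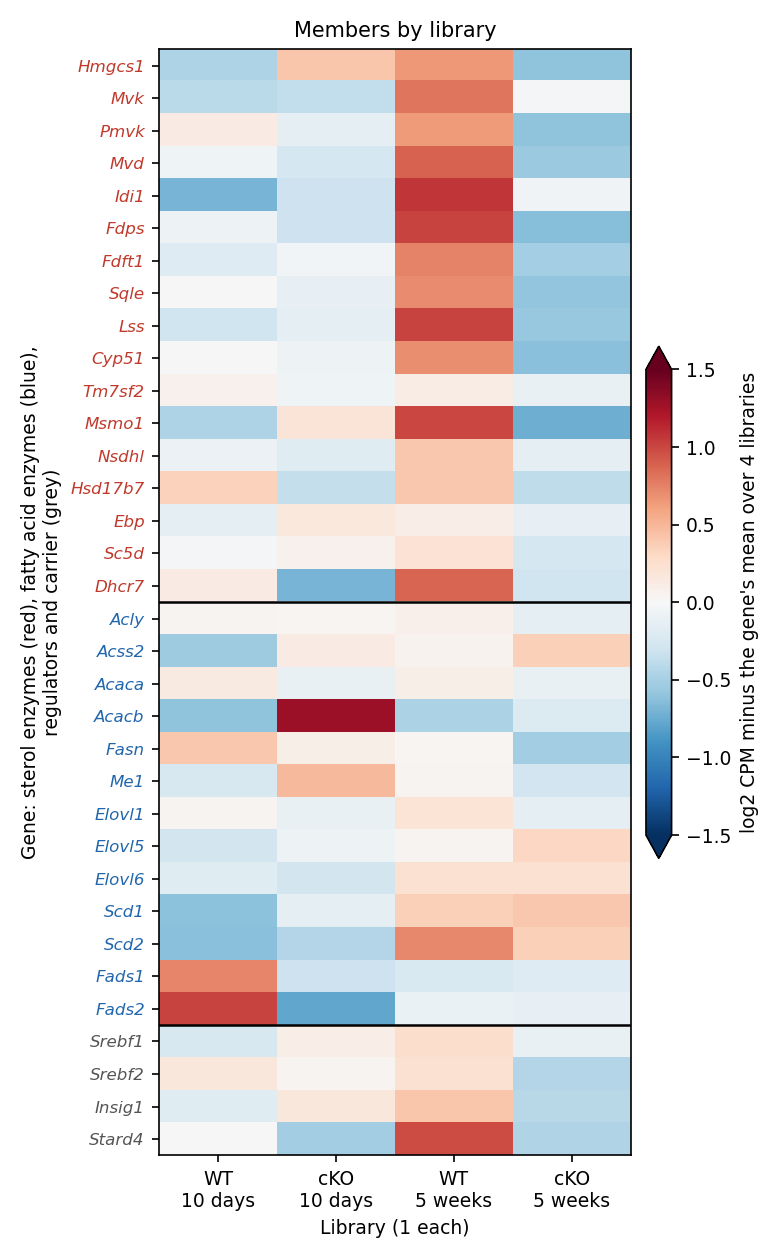
Level of each of the 34 genes in each library, as log2 CPM minus the gene's mean over the 4 libraries (colour scale, limited at 1.5 either way), with rows in pathway order. Among sterol enzymes 16 of 17 are highest in WT at 5 weeks, against 4 of 13 fatty acid enzymes.

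The early steps, from acetyl-CoA to farnesyl diphosphate, followed this pattern. Hmgcs1, the cytosolic HMG-CoA synthase, stood at 124.9 CPM in WT and 228.6 in cKO at 10 days, and at 268.4 in WT and 112.8 in cKO at 5 weeks. The genotypes overlapped, with cKO above WT at the first time and below it at the second (log2 ratios 0.87 and -1.25). Idi1, the isomerase that makes dimethylallyl diphosphate, stood at 34.8 and 45.4 CPM in WT and cKO at 10 days and at 118.9 and 54.3 at 5 weeks. Its WT library at 5 weeks was 3.42-fold above that at 10 days. Fdps, farnesyl diphosphate synthase, stood at 35.4 and 30.2 CPM in WT and cKO at 10 days and at 75.4 and 24.1 at 5 weeks. Here both cKO libraries lay below both WT libraries, and the difference was 3.13-fold at 5 weeks. Mvd, the decarboxylase that makes isopentenyl diphosphate, stood at low levels, at 9.58 and 8.34 CPM at 10 days and 18.5 and 6.83 CPM at 5 weeks. The kinases of the segment, Mvk and Pmvk, had log2 ratios of -0.84 and -1.24 at 5 weeks and of 0.04 and -0.27 at 10 days. The sign for Mvk at 10 days changed with total-count scaling (log2 ratio -0.01).

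The squalene and lanosterol steps gave ratios of like size. Lss, which closes the rings to form lanosterol, stood at 26.7 CPM in WT and 29.7 in cKO at 10 days, and at 66.0 and 22.1 at 5 weeks (2.99-fold lower in cKO). Cyp51, the lanosterol demethylase, stood at 53.6 and 51.0 CPM at 10 days and at 87.2 and 34.8 at 5 weeks. Its cKO values were below both WT values, by little at 10 days and by 2.5-fold at 5 weeks. Fdft1 (squalene synthase) and Sqle (squalene epoxidase) had log2 ratios of -1.25 and -1.30 at 5 weeks and of 0.15 and -0.11 at 10 days.

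The late steps, which trim lanosterol to cholesterol, were mixed. Msmo1, the methyl sterol oxidase, had the lowest 5-week ratio of the 34 genes, at 105.5 CPM in WT against 31.8 in cKO (log2 ratio -1.73). At 10 days it stood at 38.4 CPM in WT and 60.5 in cKO, so the order of the genotypes was the opposite. Dhcr7, the reductase of the last step, stood at 18.6 CPM in WT and 10.6 in cKO at 10 days and at 31.3 and 14.0 at 5 weeks. Hsd17b7, a ketoreductase that takes part in removing the methyl groups, stood at 22.6 and 13.8 CPM at 10 days and at 23.5 and 13.6 at 5 weeks. For these last 2 genes the cKO libraries lay below WT by similar ratios at both times (log2 ratios -0.81 and -1.16 for Dhcr7, -0.71 and -0.78 for Hsd17b7). Tm7sf2, Ebp and Sc5d, a sterol reductase, isomerase and desaturase, had 5-week ratios of -0.21, -0.23 and -0.47, the smallest of the branch. Nsdhl, a sterol dehydrogenase, had -0.54.

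Genes in this branch are known to carry binding sites for SREBP and its partner NF-Y, which binds the CCAAT box, close to their start, so promoter windows (RefSeq, GRCm38.p6, 250 bases before to 50 after the start) were searched on both strands. A window was held for 27 of 34 genes. The CCAAT box (CCAAT, or ATTGG on the other strand) was in a window of 14 of 14 sterol enzymes, 7 of 10 fatty acid enzymes and 3 of 3 regulators, beside 42.3% of the 12495 tested genes with a window and 37.4% of all windows. The GC box (GGGCGG) was in 13 of 14, 5 of 10 and 3 of 3, beside 63.5% of tested genes and 35.7% of all windows. The sterol regulatory element in the form TCACNCCAC was in 1 of 27, Hmgcs1, beside 1.39% of tested genes and 1.24% of all windows. SREBP also binds variants that these letters do not cover. A match is a description of the sequence and not evidence of binding. The 150 bases before the start are shown for Hmgcs1, the entry enzyme, for Mvd, Lss and Msmo1, which had low 5-week ratios, and for Fasn of the other branch. Capitals mark CCAAT boxes on either strand and, in Hmgcs1, also the sterol regulatory element (positions -137 to -129 from the start).
Hmgcs1 (chr13:119690201-119690350, plus strand): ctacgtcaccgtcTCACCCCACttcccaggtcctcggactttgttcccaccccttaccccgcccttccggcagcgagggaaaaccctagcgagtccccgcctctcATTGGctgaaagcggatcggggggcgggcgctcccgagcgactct
Mvd (chr8:122443423-122443572, minus strand): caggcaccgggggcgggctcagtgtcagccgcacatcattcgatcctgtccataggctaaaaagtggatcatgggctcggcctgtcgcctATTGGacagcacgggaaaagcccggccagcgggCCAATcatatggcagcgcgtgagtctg
Lss (chr10:76531455-76531604, plus strand): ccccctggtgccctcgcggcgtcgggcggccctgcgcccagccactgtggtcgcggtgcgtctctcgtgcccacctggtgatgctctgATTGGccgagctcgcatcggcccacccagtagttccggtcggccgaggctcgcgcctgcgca
Msmo1 (chr8:64733579-64733728, minus strand): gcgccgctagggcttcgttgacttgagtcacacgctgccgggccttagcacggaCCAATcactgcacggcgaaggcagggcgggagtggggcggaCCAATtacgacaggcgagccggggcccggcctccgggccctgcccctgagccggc
Fasn (chr11:120824548-120824697, minus strand): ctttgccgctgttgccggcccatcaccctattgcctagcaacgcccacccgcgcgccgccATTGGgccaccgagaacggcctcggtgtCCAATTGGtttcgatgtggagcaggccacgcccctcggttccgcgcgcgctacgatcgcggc
The nearest CCAAT box to the start in these stretches lay at -45 to -41 in Hmgcs1, -27 to -23 in Mvd, -62 to -58 in Lss and -55 to -51 in Msmo1. Fasn held 3 matches, 2 of them overlapping, at a 5-week log2 ratio of -0.55, and 7 of 10 windows of its branch held a match.

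The fatty acid branch was nearly level at 5 weeks and scattered at 10 days. Fasn, fatty acid synthase, stood at 453.1 CPM in WT and 364.0 in cKO at 10 days, and at 350.0 and 239.6 at 5 weeks, the lowest 5-week ratio of the branch (log2 ratio -0.55). Acly, which supplies cytosolic acetyl-CoA from citrate, stood at 197.6 and 196.7 CPM at 10 days and at 203.8 and 173.6 at 5 weeks. Acaca, the main lipogenic acetyl-CoA carboxylase, had log2 ratios of -0.25 and -0.20. Acss2, which makes acetyl-CoA from acetate, stood at 11.8 and 18.6 CPM at 10 days and at 17.8 and 21.9 at 5 weeks. Both its cKO libraries lay above both WT libraries, as in 22.6% of all genes. Among the elongases, Elovl1 stood at 76.1 and 68.7 CPM at 10 days and at 85.4 and 66.8 at 5 weeks, while Elovl5 and Elovl6 had 5-week log2 ratios of 0.27 and 0.00.

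The stearoyl-CoA desaturases, which make monounsaturated fatty acids, were higher at 5 weeks than at 10 days in both genotypes. Scd1 stood at 198.5 CPM in WT and 275.3 in cKO at 10 days, and at 391.2 and 404.6 at 5 weeks. Scd2 stood at 125.8 and 143.8 CPM at 10 days, and at 320.8 and 248.9 at 5 weeks. For both genes neither 5-week library overlapped the 10-day libraries, and the share of all genes that separate in this way was not counted. Both are also the genes of the list with an unadjusted p under 0.05 for time in edgeR. The separation comes from the same values and adds no support. The time log2 fold change, with genotype held constant, was 1.07 for Scd2 (SE 0.248, edgeR adjusted p = 0.513) and 0.77 for Scd1 (SE 0.250, adjusted p = 0.775), so neither passed the threshold of 0.05. DESeq2, which called 108 genes higher at 5 weeks (0.571% of all tested, with 0.444% lower), called Scd2 (adjusted p = 0.0365) and no other of the 34. The paralogs share sequence, so reads may be divided between them by the counting model.

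The largest ratios of the branch were at 10 days, in genes chosen for display after their values were seen. Fads1 and Fads2, the desaturases that make long polyunsaturated fatty acids, were highest in WT at 10 days. Fads2 stood at 222.5 CPM there against 64.0 in cKO (log2 ratio -1.80), and at 102.4 against 100.9 at 5 weeks. Fads1 stood at 182.4 against 88.5 CPM at 10 days (log2 ratio -1.04), and at 93.7 against 96.5 at 5 weeks. For Fads1 the other 3 libraries lay close together, and for Fads2 the cKO library at 10 days was also the lowest. Acacb, the mitochondrial carboxylase that limits fatty acid oxidation, was highest in cKO at 10 days, at 58.0 CPM, against 15.7, 17.1 and 20.7 CPM in WT at 10 days, WT at 5 weeks and cKO at 5 weeks. Me1, malic enzyme, a source of NADPH, stood at 40.2 and 66.3 CPM in WT and cKO at 10 days and at 48.8 and 39.0 at 5 weeks. Past 2-fold at 10 days were thus 2 of 13 lower and 1 of 13 higher, beside 7.45% and 7.89% of all genes.

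Adipocyte markers moved with the cKO library at 10 days, where Acacb and Me1 were also highest. The 10 markers summed to 144.3 CPM in WT and 894.1 in cKO at 10 days, and to 175.5 and 404.1 at 5 weeks. Fabp4 and Cd36 made up most of each sum except that of cKO at 10 days, and stood at 240.6 and 132.3 CPM in cKO at 5 weeks. All 10 were past 2-fold higher in cKO at 10 days, and 8 of 10 had their highest value there. None was at 0 in any library, but some were near the floor in WT at 10 days, such as Lep (0.029 CPM) and Retn (0.174 CPM). Adipoq, the adiponectin gene, stood at 0.26 CPM in WT and 23.7 in cKO at 10 days and at 0.25 and 0.47 at 5 weeks. Their part in the Acacb and Me1 values was not tested.

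**Figure D3:**
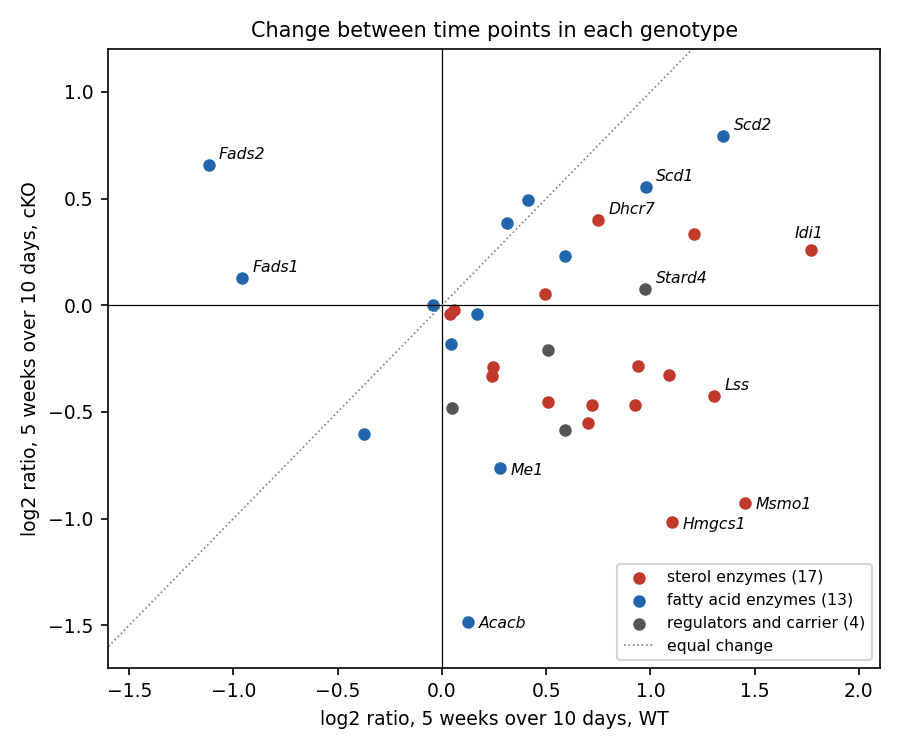
Log2 ratio of 5 weeks over 10 days in WT (horizontal axis) and in cKO (vertical axis), 1 point per gene, 34 genes. The dotted line marks equal change, and 13 of 17 sterol enzymes sit to the right of 0 and below 0, where 4 of 13 fatty acid enzymes and 27.1% of all genes sit.

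The 4 regulators and carriers had a median log2 ratio of 0.10 at 10 days and -0.75 at 5 weeks. At 5 weeks 4 of 4 lay below WT in cKO and 1, Stard4, was past 2-fold lower. Srebf2 stood at 321.0 CPM in WT and 292.4 in cKO at 10 days, and at 332.2 and 209.5 at 5 weeks. Both cKO libraries lay below both WT libraries, with log2 ratios of -0.13 and -0.66 at the successive times. Srebf1 stood at 219.3 and 277.7 CPM at 10 days and at 311.7 and 239.8 at 5 weeks, with overlapping genotypes. Insig1, the sterol-sensing anchor protein and itself an SREBP target, stood at 63 and 80.3 CPM at 10 days and at 94.9 and 53.5 at 5 weeks. Stard4, a cytosolic cholesterol carrier and SREBP-2 target, stood at 16.9 and 11.8 CPM at 10 days and at 33.3 and 12.4 at 5 weeks (log2 ratio -1.42). All 4 had their highest value in WT at 5 weeks. These are mRNA levels and do not measure processing of the SREBP proteins.

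Per kilobase of merged exon, the fatty acid enzymes had the higher median in every library, with overlapping ranges. In WT at 5 weeks the ranges were 2.87 to 58.4 for sterol and 1.75 to 80.0 for fatty acid enzymes. The merged length counts the exons of all annotated transcripts. In WT at 10 days the median was 8.0 CPM per kilobase for sterol enzymes and 23.0 for fatty acid enzymes, and at 5 weeks 15.9 and 19.5. In cKO the medians were 8.54 and 18.4 at 10 days, and 5.72 and 20.1 at 5 weeks. Hmgcs1 was the highest sterol enzyme in every library, from 24.6 to 58.4 CPM per kilobase. Among fatty acid enzymes Fads2 was highest in WT at 10 days (67.5 CPM per kilobase) and Scd1 in the other 3 libraries (56.3 to 82.7).

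**Figure D4:**
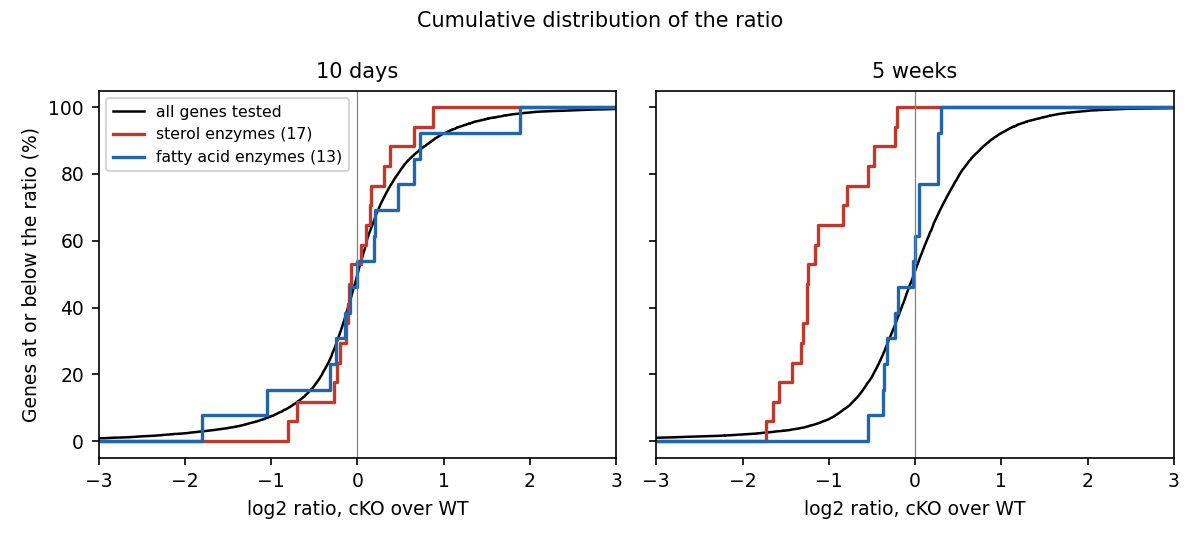
Cumulative share of genes (%) at or below each log2 ratio of cKO over WT, at 10 days (left) and 5 weeks (right), for all 18917 genes tested (black), sterol enzymes (red) and fatty acid enzymes (blue), within 3 log2 units either side of 0. At 5 weeks the sterol curve lies left of the curve of all genes, with medians of -1.24 and -0.01.

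With time point held constant over the 4 libraries, 0 of 34 genes passed an adjusted p of 0.05 for genotype in edgeR's quasi-likelihood test, where 11 of 18917 genes passed (0.0581%, of which 0.0529% lower and 0.00529% higher). The smallest adjusted p was 0.284. An unadjusted p under 0.05 was reached by 3 of 34, all lower in cKO, beside 5.80% of all genes lower and 5.80% higher. They were Dhcr7 (log2 fold change -0.99, SE 0.245), Hsd17b7 (-0.75, SE 0.233) and Stard4 (-0.97, SE 0.306), genes with a like ratio or the same sign at both times. Both cKO libraries lay below both WT libraries in 9 of 17 sterol enzymes, 4 of 13 fatty acid enzymes and 2 of 4 regulators, beside 23.3% of all genes. The median genotype log2 fold change was -0.55 for sterol enzymes and -0.09 for fatty acid enzymes, beside -0.01 for all genes. For time, 0 of 34 passed in edgeR, beside 0.0634% of all genes. At an unadjusted p under 0.05 there were 2, Scd1 and Scd2, both higher at 5 weeks (3.09% of all genes), and 0 lower (2.27%). Genotype, time and their interaction together leave no residual among 4 libraries, so the difference between the 5-week and 10-day ratios could not be tested. In the fit without the interaction, a change of the ratio between the times enters the residual. The genotype SE was 0.628 for Hmgcs1 and 0.732 for Msmo1, whose ratios changed sign. The 0 of 34 therefore does not address a difference confined to 1 time.

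The sterol genotype median rested on WT at 5 weeks. Without that library, in a fit with no time term, it was -0.067, and without WT at 10 days it was -1.0. With no filter on low counts, edgeR called 5 of 34: Fdps (log2 fold change -0.95, adjusted p = 0.00905), Dhcr7, Fads2 and Stard4 lower, and Acacb higher. That fit called 2.01% of its 33332 genes lower and 1.70% higher. DESeq2 called 0 of 34 for genotype, beside 1.46% of all genes lower and 1.25% higher. In limma-voom 0 of 34 passed for genotype (0.132% of all genes lower, 0.0211% higher) and 0 of 34 for time (0.127% lower, 0.0793% higher). For time the unfiltered fit called Idi1 and Scd2 higher at 5 weeks, beside 1.10% of its genes higher and 0.819% lower.

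Markers of other cells moved with the WT library at 5 weeks, in which the sterol enzymes were highest. The 7 basal epithelial markers, among them the targeted gene Trp63, summed to 3913 CPM in WT and 967.8 in cKO at 10 days. At 5 weeks they summed to 17331 and 963.5, and 7 of 7 were highest in WT at 5 weeks. The basal keratin gene Krt5 stood at 1018 and 123.0 CPM at 10 days and at 7826 and 235.8 at 5 weeks. The 8 markers of epidermal differentiation summed to 160.5 and 23.8 CPM at 10 days and to 666.3 and 90.2 at 5 weeks, with 8 of 8 highest in WT at 5 weeks. The 5 proliferation markers summed to 100.5 and 15.1 CPM at 10 days and to 188.0 and 70.0 at 5 weeks, with 5 of 5 highest there. At 10 days, where the sterol median was -0.07, these 3 lists had median log2 ratios of -1.86, -4.37 and -2.78. None of their markers was at 0 in any library, but several epidermal markers were near the floor in cKO at 10 days. Ivl, Dsg1a and Spink5 each stood at 0.094 CPM there and Krtdap at 0.38 CPM, so the size of the epidermal median is uncertain. The luminal markers had medians of 0.10 and -0.15 at the successive times. At 5 weeks 8 of 8 lay below WT in cKO, as did 9620 of all 18917 genes. For Epcam and Krt8 the log2 ratios were only -0.008 and -0.04. Upper-quartile factors moved the 5-week median of all genes from -0.01 to 0.06, a larger shift. Of the 8 luminal markers only 1, Elf3, was past 2-fold lower then. Elf3 stood at 156.9 CPM in WT and 161.4 in cKO at 10 days, and at 454.3 and 151.8 at 5 weeks. The 7 fibroblast markers summed to 35153 CPM in WT and 24794 in cKO at 10 days, and to 22230 and 49987 at 5 weeks. Their sums, mostly collagen RNA, had the reverse order of the sterol sums over the 4 libraries, lowest in WT and highest in cKO at 5 weeks. As single genes Col1a2, Col3a1 and Lum had this order, and the others did not. Dcn and Dpt were lowest in WT at 10 days, and Dcn was highest in cKO at 10 days. Col1a1 was lowest in cKO at 10 days, and Pdgfra was higher in cKO than in WT at that time. The part of these cells in the sterol values was not tested.

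**Figure D5:**
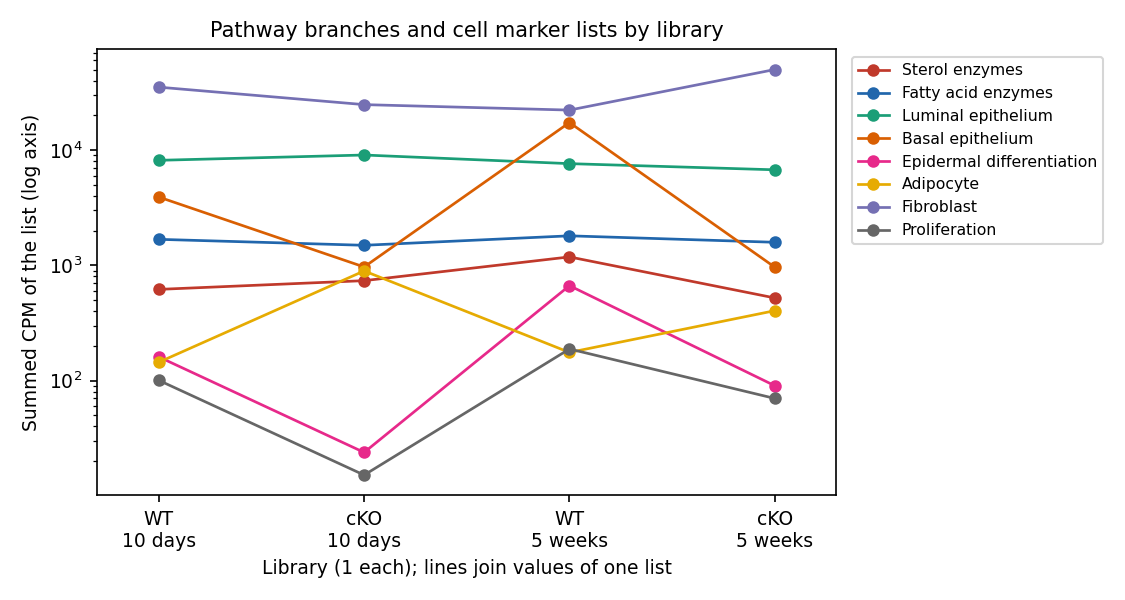
Summed CPM (log axis) of the sterol enzymes, fatty acid enzymes and 6 cell marker lists in each of the 4 libraries, with lines joining the values of 1 list. Sterol enzymes, basal, epidermal and proliferation markers all peak in WT at 5 weeks. The sterol sum at 10 days is 736.0 CPM in cKO and 618.4 in WT, of which Hmgcs1 alone is 228.6 and 124.9.

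Other genes of lipid metabolism were taken from a list of 47, of which 46 were tested. None passed for genotype in edgeR, and at an unadjusted p under 0.05 there were 1 lower and 3 higher in cKO (5.80% of all genes in each direction). The 3 higher are 6.52% of the 46, near that share. The lower gene was Elovl4, an elongase of very long fatty acids, at 6.18 CPM in WT and 2.14 in cKO at 10 days and at 6.78 and 4.06 at 5 weeks (genotype log2 fold change -1.12, SE 0.384, edgeR adjusted p = 0.385). The 3 higher were Abca1 and Abcg1, cholesterol exporters, and Mylip, a ligase that degrades lipoprotein receptors. Abca1 stood at 94.3 CPM in WT and 135.8 in cKO at 10 days, and at 90.8 and 195.3 at 5 weeks. Its genotype log2 fold change was 0.82 (SE 0.233, edgeR adjusted p = 0.326). Abcg1 stood at 12.0 and 25.9 CPM and at 17.5 and 23.8 CPM, and Mylip at 26.0 and 47.2 and at 31.0 and 41.6. In each of these 3 genes both cKO libraries lay above both WT libraries, as in 22.6% of all genes. The genes were named for their unadjusted p on the same values, so this separation adds no support. Scap, Insig2, Mbtps1 and Mbtps2, the machinery of SREBP transport and cleavage, had 5-week log2 ratios of -0.56, 0.28, -0.07 and 0.24.

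Past 2-fold lower at 5 weeks were 3 of these 46 genes (6.52%), a share near the 6.54% of all genes. They were 0 of 9 genes of SREBP processing and oxysterol response, 1 of 13 of sterol side steps, transport and storage, 1 of 16 of fatty acid supply and elongation, and 1 of 8 of glycerolipid assembly. Their median log2 ratios at 5 weeks, in the same order, were 0.28, -0.15, -0.33 and -0.20, and at 10 days 0.45, 0.03, 0.01 and 0.22. Of the 13 genes of sterol side steps, transport and storage, 8 lay below WT in cKO at 5 weeks, as did 9620 of all 18917 genes. Ggps1, Npc1, Npc2, Scarb1 and Soat1 lay above, with log2 ratios of 0.36, 0.12, 0.29, 0.36 and 0.69. Among those below, named after their values were seen, the SREBP-2 targets Tmem97 and Acat2 had 5-week log2 ratios of -0.73 and -0.80. Their 10-day ratios were 0.03 and 0.19. Aacs, which activates acetoacetate for lipid synthesis, stood at 25.9 CPM in WT and 48.9 in cKO at 10 days and at 42.7 and 28.6 at 5 weeks. As for Hmgcs1 and Msmo1, cKO lay above WT at 10 days and below it at 5 weeks. The highest value of Aacs was in cKO at 10 days, and that of Hmgcs1 and Msmo1 in WT at 5 weeks.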

How the data were processed

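The data are 4 RNA sequencing libraries of sorted mouse mammary cells. The authors deposited estimated counts per gene. The submitters' processing notes name Salmon as a tool and GRCm38 as the build, and give no version. The aligner settings and annotation are not given in the sources used here. The estimated counts were whole numbers, and rounding changed none. All 54393 identifiers matched GENCODE M21, and 0 columns belonged to other samples. For a repeated symbol the identifier with most counts was used. Without stated strand use, overlapping genes are uncertain.

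Genes were filtered with filterByExpr (minimum count 10), leaving 18917 genes with 99.9% of counts. A robust quasi-likelihood model with time and genotype terms and TMM factors was fitted in edgeR 4.0.16 under R 4.3.3, which left 1 residual degree of freedom. The fit draws the variance of each gene toward that of the other genes, here with a median of 4.57 prior degrees of freedom. A p-value or SE is thus not from the spread of that gene alone. Benjamini-Hochberg adjustment ran over every tested gene. The SE was derived from the F statistic as |log2 fold change| over its root. Ratios within a time point are differences of log2 CPM (prior count 2), with no test. Past 2-fold means a log2 ratio of at least 1 either way. DESeq2 1.42.0 and limma 3.58.1 (voom) were alternatives. The fit was tested on simulated counts with a common dispersion and no difference between the times. That test does not cover a genotype difference that changes with time. The members, lists and tests were chosen with earlier results of these data known. Values in every library are given for the regulators, for genes with an unadjusted p under 0.05, and for the 5 genes of each branch with the largest 5-week ratio. Other genes were chosen for display after their values were seen. Time points were taken from the labels for time after tamoxifen, not from the gland ages.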

Additional observations from a re-analysis of the deposited data

Results flagged for a closer look

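In 6 of the 34 genes the cKO library lay above WT at 10 days and below it at 5 weeks, by at least 0.3 on the log2 scale each time (17.6%, beside 4.92% of all genes tested). Each is given as the 5-week log2 ratio minus the 10-day one, which was not tested because no residual remains. The values were -2.38 for Msmo1, -2.12 for Hmgcs1, -1.51 for Idi1, -1.18 for Insig1, -1.04 for Me1 and -0.72 for Srebf1. The signs at both times held under all 4 scalings tried. The median of this difference was -1.19 over the 17 sterol enzymes, -0.22 over the 13 fatty acid enzymes and -0.06 over all genes tested.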

How the results depend on the processing

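With 1 library per genotype and time, the medians within a time point have no replicate check. Under RLE, upper-quartile or no scaling factors and prior counts of 0.5 and 5, the sterol median at 5 weeks ran from -1.24 to -1.17, the fatty acid median from -0.02 to 0.05 (with upper-quartile factors), and the count past 2-fold lower stayed at 11 sterol and 0 fatty acid enzymes (the last an alternative chosen after seeing the data). No scaling moved the median of all genes by over 0.1. The time point served as the block, and without it edgeR called 0 genes for genotype (1103 lower and 1079 higher at an unadjusted p under 0.05). The 11 genotype calls became 5 with RLE factors, 3 with upper-quartile factors, 29 in limma-voom, 512 in DESeq2 and 1235 with no low-count filter, and 0 to 61 without 1 library. The 12 time calls became 1 without the genotype term, 39 in limma-voom, 192 in DESeq2 and 638 with no filter, and 0 to 19 without 1 library. Among the 34 genes, no filter gave 5 genotype and 2 time calls (Idi1 and Scd2), and DESeq2 gave 1 time call. The cause was not tested. Without 1 library, and with no second term, the sterol median ran from -1.0 to -0.067 for genotype, and from -0.39 (without WT at 5 weeks) to 0.76 (without cKO at 5 weeks) for time. The fatty acid medians ran from -0.20 to 0.18 for genotype and from -0.13 to 0.11 for time. No gene among the 34 changed sign with a call.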

Other observations

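The other cell marker lists gave these values. Milk synthesis genes (7 listed, 6 tested), among them Xdh and Glycam1, summed to 348.3 CPM in WT and 1214 in cKO at 10 days and to 695.8 and 884.8 at 5 weeks, and 5 of 6 were past 2-fold higher in cKO at 10 days (7.89% of all genes). The sixth, Csn2, stood at 3.05 CPM in WT at 10 days and was at 0 in cKO at that time. Sebaceous gland markers, cells known for lipid synthesis, summed to between 36.7 and 53.5 CPM over the 4 libraries (8 listed, 6 tested). Most of that sum was Soat1, a cholesterol esterifying enzyme of many tissues. The other 5 summed to 3.37 CPM in WT and 6.64 in cKO at 10 days, and to 8.08 and 5.77 at 5 weeks. Leukocyte markers summed to 37.1 and 65.3 CPM at 10 days and to 27.5 and 84.6 at 5 weeks, endothelial markers to 94.2 and 132.1 and to 122.7 and 217.3, and red cell markers to 15.8 and 7.02 and to 18.5 and 43.7, for WT and cKO in turn.

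Promoter windows of sterol enzymes were also searched for the E-box CACGTG and the p53 family half-site, which p63 can bind. The E-box was in 3 of 14 sterol and 1 of 10 fatty acid enzymes, beside 10.8% of tested genes with a window. The half-site was in 4 of 14 and 0 of 10, beside 8.58%. These counts are descriptions, and no binding was measured.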
